A study of Drosophila melanogaster with 4 samples.

Results

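The proteasome degrades proteins that have been tagged with ubiquitin. Its 20S core is a barrel of stacked rings, in which the Prosalpha subunits form the outer rings and gate the entrance and the Prosbeta subunits form the inner rings that cut the substrate. The 19S regulatory particle caps the barrel. Its base holds the Rpt ATPases, which unfold the substrate and thread it into the core, and its lid is made of Rpn subunits, among them a deubiquitinase.

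The genes described here are those with a current symbol of Prosalpha, Prosbeta, or Rpn or Rpt followed by a digit, and with a value on at least 1 array of each biological replicate. Of 48 such genes in the gene table used for names, 40 had a spot named for them in the array annotation used, and 27 genes, measured by 28 of 43 named spots, met the rule. They comprise 13 genes of the 20S core and 14 of the 19S particle, out of 5752 genes that met the same rule over the whole array. All 28 spots had a value on all 4 arrays, so no member rests on fewer. The 13 genes whose spots had too few values were Prosalpha3T, Prosalpha4T1, Prosalpha4T2, Prosalpha6T, Prosbeta2R1, Prosbeta2R2, Prosbeta4R1, Prosbeta4R2, Prosbeta5R1, Prosbeta5R2, Rpn13R, Rpt3R and Rpt4R, all of them named as variant copies (T or R) of a proteasome gene. Prosbeta1, Prosbeta6, Rpn9, Rpn10, Rpt1, Rpt6 and the copies Rpn12R and Rpt6R had no named spot and were not analysed here.

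RNA came from whole Drosophila melanogaster embryos aged 0 to 24 h, from flies kept at 25 °C. The mutant embryos were dsap18 117/Df(3R)sbd45 in a w1118 background, that is, a null allele of dsap18, made by mobilising a P-element, over a deficiency that uncovers the gene. The control embryos had that same genotype plus a dsap18-HA rescue transgene, so both kinds carried the null allele and the deficiency and differed by the transgene. The promoter that drives the transgene is not given in the sources used here. There were 2 biological replicates from different RNA extractions, each hybridised on 2 two-colour arrays with the dyes swapped, so n is 2. On 1 array, the replicate 1 array with the mutant in Cy3, the label places the transgene on chromosome 2, whereas on the other 3 arrays it is placed on the X chromosome. No spot was named for dsap18 (current symbol Bin1), so the labels could not be checked on the targeted gene.

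Each value is a log ratio of the channels of an array, taken as log2. Which channel stands on top of the deposited ratio is not given. Mutant over control is likely, because the series text treats the mutant RNA as the sample, and a positive ratio then means a higher transcript level in the mutant embryos. If the ratio runs the other way, every sign below turns and the sizes and groupings stay. Array values below are given with the array on which the mutant was labelled with Cy3 first and the array with the mutant in Cy5 second. The swapped arrays correlated positively over all spots (r = 0.84 in replicate 1 and 0.93 in replicate 2, across spots), and no sign was changed. Ratios were wider in replicate 2, where their SD over all genes was 0.48, against 0.28 in replicate 1. Absolute levels were not measured, so no gene's level can be set against another's.

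The 2 particles of the proteasome differed. Every measured gene of the 20S core had a positive mean log2 ratio, and 10 of 13 passed the test with a positive ratio (76.9%), whereas 11.2% of all genes tested did so. Among 14 genes of the 19S particle, mean ratios were negative in 9 and positive in 5, and 1 passed on each side (7.14% each), beside 11.2% positive and 11.6% negative among all genes. To pass, a gene needed a Benjamini-Hochberg adjusted p under 0.05, over 5752 genes, in limma's moderated test of the 2 replicate means against 0. The median log2 ratio was 0.48 ± 0.40 for the core genes and -0.11 ± 0.04 for the 19S genes, against 0.02 for all genes (SD of the 2 replicate medians). No core gene passed with a negative ratio in limma, also at an unadjusted p under 0.05 (0 of 13), and neither did the ordinary one-sample test call any at that level (0 of 13). Among all 5752 genes, limma gave 1041 positive and 981 negative at that unadjusted level, and the ordinary test 461 of either sign. The unadjusted counts given below for each list stand beside these.

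**Figure D1:**
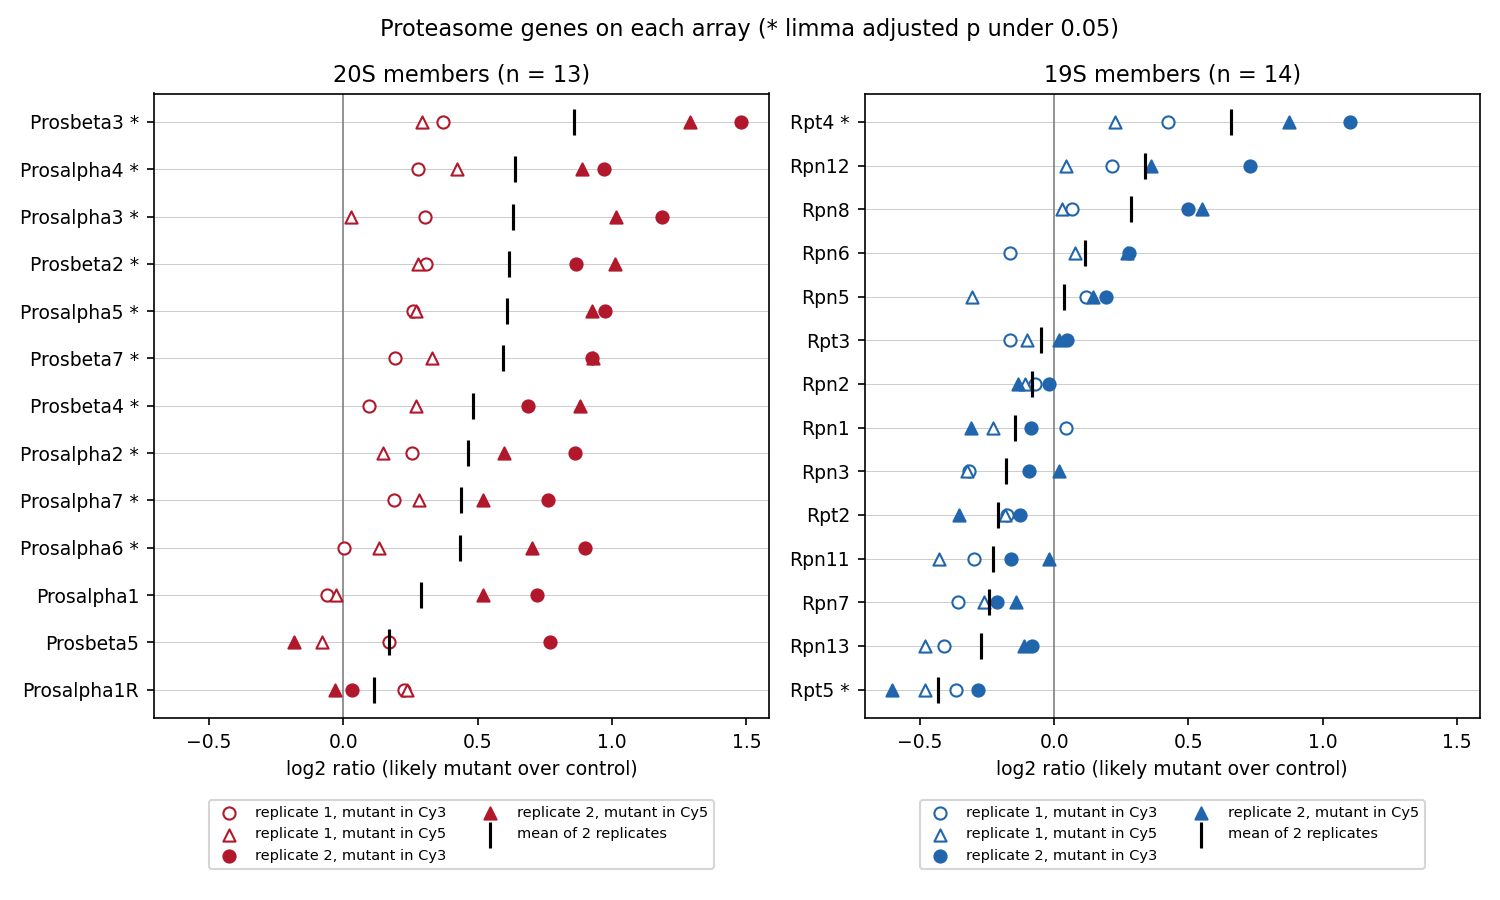
Log2 ratios (x axis, likely mutant over control) of each of the 13 genes of the 20S core (left) and the 14 genes of the 19S particle (right) on the 4 arrays. Open symbols are replicate 1 and filled symbols replicate 2, circles have the mutant in Cy3 and triangles in Cy5, the black bar is the mean of the 2 replicates, and a star marks an adjusted p under 0.05. In the core panel the filled symbols lie mostly between 0.5 and 1.5, to the right of the open ones, while most 19S genes stay close to or below 0.

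Among the core genes, Prosbeta3, a non-catalytic subunit of the inner rings, had the highest ratio. Replicate 1 gave 0.37 and 0.29 and replicate 2 gave 1.48 and 1.29. All 4 were positive. The mean was 0.86 ± 0.74 (SD, n = 2), a 1.81-fold difference (limma adjusted p = 1.87e-04). Prosbeta2, the subunit with trypsin-like activity, had 0.31 and 0.28 in replicate 1 and 0.87 and 1.01 in replicate 2, with a mean of 0.62 ± 0.46 (limma adjusted p = 0.0041). The inner ring gene Prosbeta7 stood at 0.19 and 0.33 in replicate 1 and 0.92 and 0.93 in replicate 2 (mean 0.59 ± 0.47, limma adjusted p = 0.0055). For Prosbeta4, another inner ring gene, the values were 0.10 and 0.27, then 0.69 and 0.88 in replicate 2 (mean 0.48 ± 0.42, limma adjusted p = 0.023). In these 4 genes both arrays of replicate 2 lay above both arrays of replicate 1. How many of all genes did so was not counted. Over all 5752 genes, 2956 had a higher mean in replicate 2, where ratios were wider (SD 0.48 against 0.28).

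The remaining inner ring gene, Prosbeta5, encodes the subunit with chymotrypsin-like activity and did not pass. Its arrays split by dye and not by replicate: 0.17 and 0.77 with the mutant in Cy3, but -0.08 and -0.18 with the mutant in Cy5. The swap difference in replicate 2 was -0.95, and 6 of 4809 genes with both arrays of that replicate, Prosbeta5 included, had one as large in size. Its mean of 0.17 ± 0.18 (limma adjusted p = 0.470) therefore averages arrays that disagree in sign.

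Of 8 genes of the outer rings, 6 passed with a positive ratio. Prosalpha4 had 0.28 and 0.42 in replicate 1 and 0.97 and 0.89 in replicate 2 (mean 0.64 ± 0.41, 1.56-fold, limma adjusted p = 0.0028). Prosalpha3 gave 0.30 and 0.03 in replicate 1 and 1.19 and 1.02 in replicate 2 (mean 0.63 ± 0.66, limma adjusted p = 0.0043), so that nearly all of its ratio came from replicate 2. Prosalpha5 was at 0.26 and 0.27 in replicate 1 and 0.97 and 0.92 in replicate 2 (mean 0.61 ± 0.48, limma adjusted p = 0.0047). All 3 were positive on every array, and their swapped arrays differed less than their replicates did.

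The other outer ring genes that passed lay closer to the threshold. Prosalpha2 read 0.26 and 0.15 in replicate 1 and 0.86 and 0.60 in replicate 2 (mean 0.47 ± 0.37, limma adjusted p = 0.029). Prosalpha7 showed 0.19 and 0.28 in replicate 1 and 0.76 and 0.52 in replicate 2 (mean 0.44 ± 0.29, limma adjusted p = 0.038). Prosalpha6 had 0.0012 and 0.13 in replicate 1 and 0.90 and 0.70 in replicate 2 (mean 0.43 ± 0.52, limma adjusted p = 0.046). Prosalpha6 did not pass with the replicate as a random block (limma adjusted p = 0.0714), with a dye term (0.0811), among genes with values on all 4 arrays (0.0541) or after centring (0.0533), and Prosalpha7 did not after centring (0.0513). The replicate spread of Prosalpha6 exceeded its mean, as did that of Prosalpha3, and these were the only 2 of the 12 called members for which it did.

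Prosalpha1 and Prosalpha1R, its close copy, did not pass, and went opposite ways between the replicates. Both spots of Prosalpha1 agreed in sign on 3 of 4 arrays, and their means were -0.06 and -0.03 in replicate 1 and 0.72 and 0.52 in replicate 2 (mean 0.29 ± 0.47, limma adjusted p = 0.200). Prosalpha1R had 0.23 and 0.24 in replicate 1 and 0.03 and -0.03 in replicate 2 (mean 0.12 ± 0.16, limma adjusted p = 0.638). It was the sole core gene with a lower value in replicate 2 than in replicate 1. Probe sequences were not used here, so how far these spots tell the copies apart is not known. Without Prosalpha1R the core median was 0.54, and 10 of 12 genes passed.

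Within the 19S base, the ATPase genes lay at both extremes. The ATPases of the base form a single ring in which Rpt4 and Rpt5 are neighbours. Rpt4 had 0.42 and 0.23 in replicate 1 and 1.10 and 0.87 in replicate 2, values in the range of the core genes (mean 0.66 ± 0.47, 1.58-fold, limma adjusted p = 0.0024). Rpt5 had -0.36 and -0.48 in replicate 1 and -0.28 and -0.60 in replicate 2, negative on all 4 arrays and nearly equal in the replicates (mean -0.43 ± 0.01, 1.35-fold, limma adjusted p = 0.038). Rpt2 (mean -0.21 ± 0.04) was negative on all 4 arrays and Rpt3 (-0.05 ± 0.12) on 2, and neither passed. Rpt4 was the only 19S gene above the core median in either replicate, and without it the 19S median was -0.14.

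The non-ATPase genes of the base had small negative means. Rpn13, a ubiquitin receptor, had -0.41 and -0.48 in replicate 1 and -0.08 and -0.11 in replicate 2 (mean -0.27 ± 0.25, limma adjusted p = 0.218). All 4 values were negative, those of replicate 2 smaller in size. The large scaffold subunits Rpn1 and Rpn2 were at -0.14 ± 0.08 and -0.08 ± 0.01, and neither passed.

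None of 7 lid genes passed in limma, beside 11.2% positive and 11.6% negative among all genes. At an unadjusted p under 0.05, 1 was positive (Rpn12) and 0 negative, against 0 by the ordinary one-sample test. The lid genes were spread on both sides of 0, with 4 positive and 3 negative means. Rpn12 had 0.21 and 0.04 in replicate 1 and 0.73 and 0.36 in replicate 2 (mean 0.34 ± 0.29, limma adjusted p = 0.118). Rpn8, the partner of the deubiquitinase Rpn11, had 0.07 and 0.03 in replicate 1 and 0.50 and 0.55 in replicate 2 (mean 0.29 ± 0.34, limma adjusted p = 0.194). Both were positive on all arrays, with higher values in replicate 2.

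On the negative side of the lid, Rpn7 had -0.36 and -0.26 in replicate 1 and -0.21 and -0.14 in replicate 2 (mean -0.24 ± 0.09, limma adjusted p = 0.270). Rpn11, which removes ubiquitin chains from substrates, was negative on all 4 arrays too (mean -0.23 ± 0.19, limma adjusted p = 0.313). The deubiquitinase and its partner Rpn8 thus had means of opposite sign, neither past the test. The other lid genes had means between -0.18 (Rpn3) and 0.12 (Rpn6), with Rpn5 at 0.04.

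The difference between the particles was seen on each array. The median of the core genes exceeded that of the 19S genes by 0.39 and 0.48 in the swapped pair of replicate 1 and by 0.92 and 0.88 in that of replicate 2. With the swapped arrays averaged first, the difference was 0.35 in replicate 1 and 0.86 in replicate 2, and 0.60 ± 0.36 for the genes' means (SD, n = 2). The 4 arrays therefore gave 1 sign, and the size was larger in replicate 2. The grouping was proposed with earlier results of these data in view, so the difference is given as a description, without a test. The particles overlapped gene by gene: the core genes Prosalpha1R (0.12) and Prosbeta5 (0.17) lay below Rpt4, Rpn12 and Rpn8. Prosalpha1 (0.29) lay below Rpt4 and Rpn12, and Rpt4 (0.66) lay above every core gene except Prosbeta3 (0.86).

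**Figure D2:**
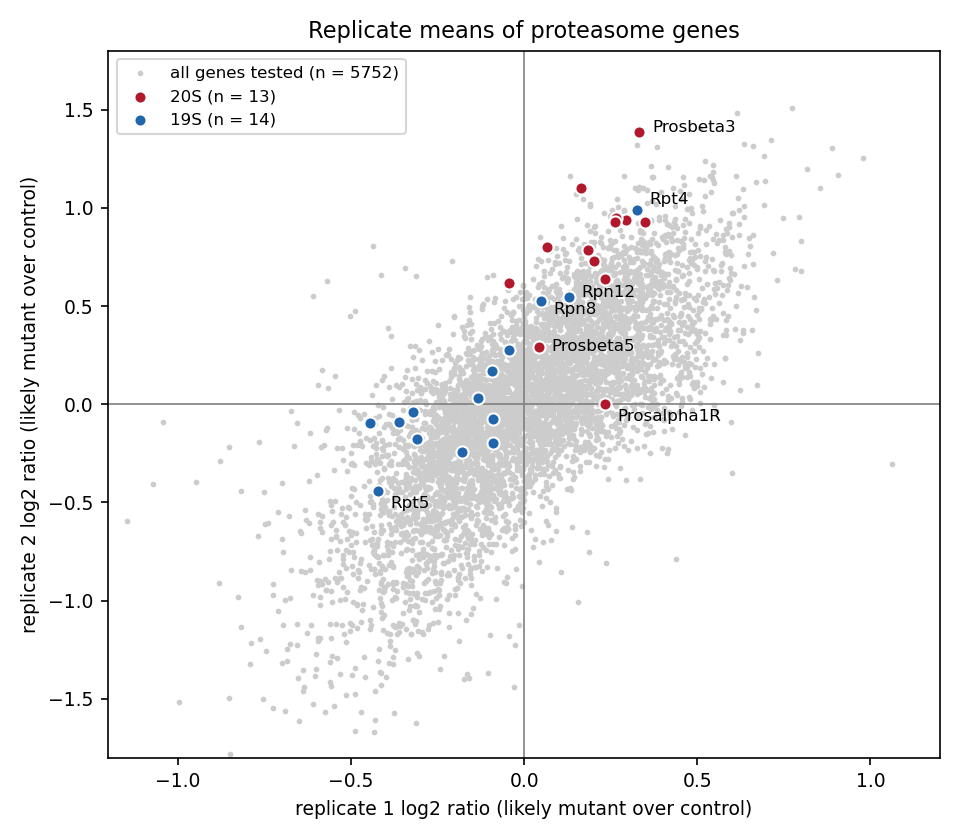
Mean log2 ratio in replicate 1 (x axis) and replicate 2 (y axis) of the 13 genes of the 20S core (red), the 14 genes of the 19S particle (blue) and all 5752 genes tested (grey), of which 17 lie outside the axes. Most core genes sit above the grey cloud's centre at replicate 2 values between 0.6 and 1.4, with Rpt4 among them, while most 19S genes lie to the left of 0.

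The replicates differed in the size of the core ratios by more than the widening of all ratios. The core median was 0.80 in replicate 2 and 0.23 in replicate 1, a quotient of 3.45, whereas the interquartile range over all genes was 1.54 times as wide in replicate 2. A larger size in replicate 2 was not particular to the core. Among lists described below, the quotient was 2.91 for the vacuolar pump, 2.81 for assembly factors, 2.68 for late embryo markers and 2.64 for the COP9 signalosome. It was 1.34 for the ubiquitin list, 1.13 for the CCT chaperonin and 0.0049 for the p97 list. The median rank of the core genes, which does not depend on the width, was also higher in replicate 2. The median core gene stood at the 96.6th percentile of all genes in replicate 2 and at the 79.1st in replicate 1. In replicate 2, 11 of 13 core genes were above the 90th percentile, and in replicate 1 none was (0 of 13, the highest, Prosalpha4, being at 89.95). Most 19S genes also had a higher ratio in replicate 2: 11 of 14, with 3 lower, beside 2956 of 5752 among all genes. The median difference was 0.27 over all 14, against 0.65 for the core genes and 0.01 for all genes. The median rank of the 19S genes was the 42.6th percentile in replicate 2 and the 34.1st in replicate 1. In replicate 1, Rpn13, Rpt5 and Rpn11 were below the 10th percentile, and in replicate 2 no 19S gene was (0 of 14, the lowest being Rpt5 at 16.0).

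**Figure D3:**
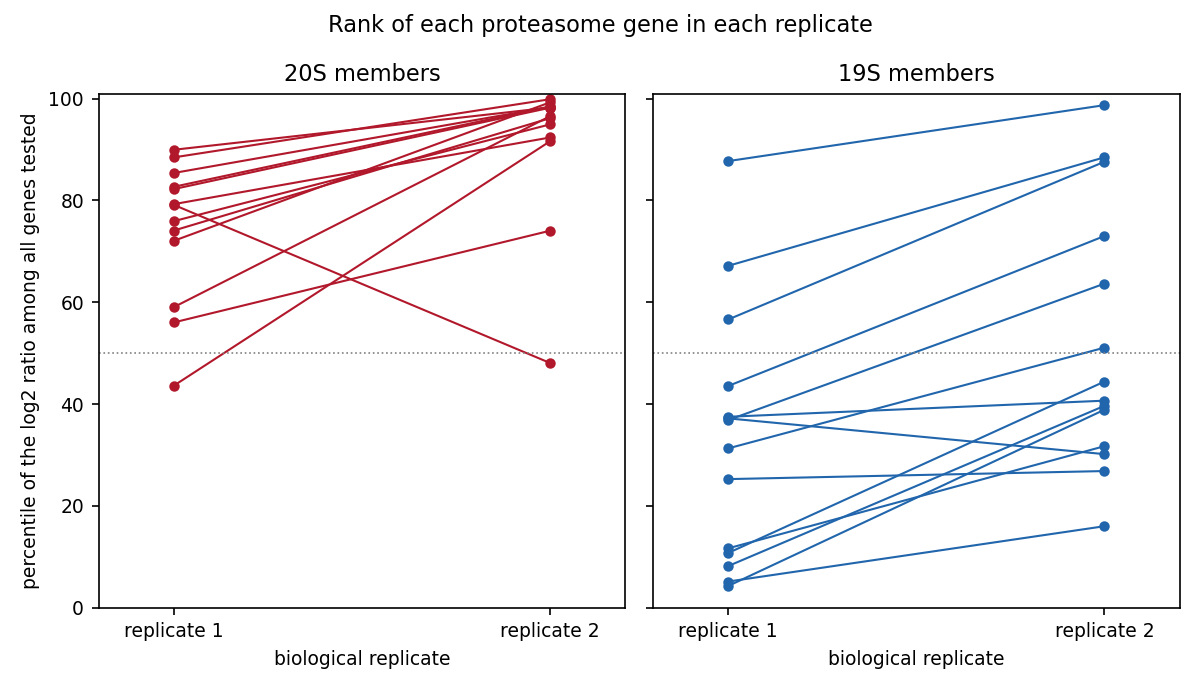
Percentile of each gene's log2 ratio among all 5752 genes tested (y axis) in replicate 1 and replicate 2 (x axis), for the 20S core (left) and the 19S particle (right), with a line for each gene. Core genes cluster near the top in replicate 2, except Prosbeta5 at 74.1 and Prosalpha1R at 48.1, and the 19S genes are spread from 16.0 to 98.7.

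In this test the variance is set mainly by the other genes, since each gene has 1 residual degree of freedom and the prior has 62.9. In an ordinary one-sample test without moderation, 0 of 27 members passed. At an unadjusted p under 0.05 that test gave 2 members (Rpt5 and Rpn2) and 461 of 5752 genes. In limma, 12 members were positive and 1 negative at that level, beside 1041 positive and 981 negative among all genes. Without the array whose label places the transgene on chromosome 2, 6 core genes passed. Prosalpha3, Prosalpha2, Prosalpha7 and Prosalpha6 then did not pass (limma adjusted p = 0.0738, 0.0902, 0.0619 and 0.0812), nor did Rpt5 (mean -0.46, limma adjusted p = 0.0523). From the 2 arrays with the mutant in Cy3, Prosbeta4, Prosalpha7, Prosalpha6 and Rpt5 did not pass (limma adjusted p = 0.13, 0.0588, 0.0758 and 0.226), and from the 2 with the mutant in Cy5, Prosalpha2 and Prosalpha7 did not (0.0742 and 0.0521). The limma p-values therefore say little about a gene's own replicate spread. Prosbeta3 (SD 0.74) and Rpt5 (SD 0.01) had standard errors of 0.17 and 0.16. They also cover no variation beyond these 2 extractions.

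The embryos were whole and of mixed age, and transcripts of early and late embryos also differed between the genotypes. Of 14 measured transcripts on a list of maternally supplied and early embryonic genes, 6 passed as positive (42.9%, beside 11.2% of all genes) and 0 as negative, and 7 and 0 had an unadjusted p under 0.05 (3 in the ordinary test). The list median stood at 0.25 in replicate 1 and at 0.53 in replicate 2. The genes that passed were plu (0.89 ± 0.39), twe (0.74 ± 0.04), swa (0.73 ± 0.11), fzy (0.60 ± 0.01), bcd (0.56 ± 0.01) and CycB (0.54 ± 0.18). Of these, plu, twe, fzy and CycB act in the nuclear or meiotic divisions and bcd encodes the anterior morphogen. The lowest mean of the list was that of Sry-alpha (-0.03 ± 0.67), whose replicates had opposite signs (-0.50 in replicate 1 and 0.45 in replicate 2). Of 13 measured muscle and cuticle genes of the late embryo, 11 passed as negative (84.6%, beside 11.6% of all genes) and 0 as positive, and 12 and 0 had an unadjusted p under 0.05 (0 in the ordinary test). The list median stood at -0.38 in replicate 1 and at -1.02 in replicate 2, and the means ran between TwdlF (-0.90 ± 0.43) and up (-0.20). The cuticle genes Ccp84Ab, Gasp, TwdlG, TwdlM and TwdlW and the muscle genes Act87E, Mlc1, Mlc2, Tm2 and TpnC73F also passed. The part of embryo age in the proteasome ratios was not tested. In RNA of whole embryos, a change in the number of cells of a type and a change in RNA per cell cannot be told apart.

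Genes that work with the proteasome were read from lists chosen with earlier results of these data known. Among 8 measured assembly factors and associated proteins, 4 passed with a positive ratio (50%, beside 11.2% of all genes) and 0 with a negative one (0 negative also at an unadjusted p under 0.05, and 0 of 8 in the ordinary test). Pomp, the chaperone that helps the core rings to assemble, had 0.29 and 0.01 in replicate 1 and 1.16 and 0.97 in replicate 2 (mean 0.61 ± 0.65, limma adjusted p = 0.0056). Its array values lay close to those of the core gene Prosalpha3. Uch-L5, a deubiquitinase that docks on Rpn13, had 0.28 and 0.38 in replicate 1 and 1.19 and 1.00 in replicate 2 (mean 0.71 ± 0.54, limma adjusted p = 0.0012), unlike its receptor, which was negative on all 4 arrays.

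Rad23, a shuttle that brings ubiquitinated proteins to the proteasome, had 0.32 and 0.69 in replicate 1 and 0.66 and 1.13 in replicate 2 (mean 0.70 ± 0.27, limma adjusted p = 9.41e-04). The F-box gene ntc had 0.55 and 0.54 in replicate 1 and 0.67 and 0.68 in replicate 2 (mean 0.61 ± 0.09, limma adjusted p = 0.0032). In both, the replicates were closer to each other than in any of the 10 core genes that passed. The proteasome regulator PI31 (0.05), the deubiquitinase Usp14 (-0.02 ± 0.34), the activator REG (0.20, from 3 arrays) and CG9588 (-0.26) did not pass. The replicates of Usp14 had opposite signs (-0.26 in replicate 1 and 0.22 in replicate 2).

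The genes that encode ubiquitin had mean ratios near 0, and those of the E2 enzymes, which carry activated ubiquitin, were spread more widely. Of 8 measured genes, 3 for ubiquitin and 5 for E2 enzymes, 1 passed with a positive ratio (12.5%, beside 11.2% of all genes) and 0 with a negative one (3 and 0 at an unadjusted p under 0.05, 2 in the ordinary test). The one that passed was the E2 gene Ubc2 (mean 0.66 ± 0.34, limma adjusted p = 0.0018). The other E2 genes were Ubc6 (0.37 ± 0.35), ben (0.34 ± 0.31, from 2 arrays), Ubc7 (0.09) and the lowest of the list, vih (-0.23). The ubiquitin genes Ubi-p63E (0.01 ± 0.30), RpS27A (0.01) and RpL40 (0.08) did not pass. The replicates of Ubi-p63E had opposite signs (0.22 in replicate 1 and -0.20 in replicate 2). The E1 gene Uba1 was not analysed here. Of 4 genes of the unfoldase TER94 (p97) and its cofactors, Npl4 passed at 0.48 ± 0.09 (limma adjusted p = 0.022, from 3 arrays), that is, 25% beside 11.2% of all genes. With a negative ratio 0 of 4 passed (0 also unadjusted, 0 in the ordinary test), beside 11.6% of all genes. TER94 itself was at -0.01 ± 0.17 and the lowest was p47 (-0.23). CncC, encoded by cnc, is the fly relative of the mammalian factors that activate proteasome genes. Of its 4 measured regulators and partners none passed in limma (0 of 4, 0 at an unadjusted p under 0.05, 1 in the ordinary test), with means between -0.19 (Keap1) and 0.23 (Pngl), and cnc itself was not analysed here.

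Of the 10 lists compared, the COP9 signalosome had the median closest to that of the core (0.48 in both). It removes the Nedd8 tag from cullin ubiquitin ligases, and its subunits are built on the same folds as those of the 19S lid. All 7 measured genes were positive on all 4 arrays, whereas 1903 of all 5752 genes were positive on every array with a value. Of the 7, 5 passed with a positive ratio (71.4%, beside 11.2% of all genes) and 0 with a negative one (beside 11.6%). At an unadjusted p under 0.05, limma gave 7 positive and 0 negative, and the ordinary test 0. Those that passed were alien (0.61 ± 0.18), which encodes subunit CSN2, CSN1b (0.56 ± 0.33), CSN7 (0.49 ± 0.43), CSN6 (0.48 ± 0.27) and CSN4 (0.48 ± 0.48). Their list median was 0.28 in replicate 1 and 0.74 in replicate 2, close to the core (0.23 and 0.80), while the lid stood at -0.09 and 0.17. No test of that difference was made.

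Other large complexes had medians further from that of the core. All 8 CCT genes, which encode the chaperonin that folds actin and tubulin, had negative means between -0.31 (CCT8) and -0.09 (CCT4). None passed in limma (0 of 8, 0 at an unadjusted p under 0.05, 1 in the ordinary test), beside 11.2% positive and 11.6% negative among all genes. The median stood at -0.18 in replicate 1 and at -0.20 in replicate 2, nearly equal. Among 34 genes with a cytoplasmic ribosomal protein symbol (RpL or RpS) the median was 0.11. Past the test were 1 positive (RpS21) and 3 negative (RpL27, RpLP2 and RpS12). These genes were taken by symbol, so RpL24-like, RpL7-like, RpLP0-like and the ubiquitin genes RpS27A and RpL40 are among them. The negative share, 8.82%, was near the 11.6% of all genes. Among 18 genes of the vacuolar proton pump the median was -0.18, with 0 past the test in limma. At an unadjusted p under 0.05, limma gave 0 positive and 2 negative, and the ordinary test 3. The share of genes past the test with a positive ratio was thus 76.9% in the core and 71.4% in the COP9 list, against 7.14% in the 19S particle, 2.94% in the ribosomal proteins, 0% in the pump and 11.2% among all genes. The 19S share is near that of all genes.

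**Figure D4:**
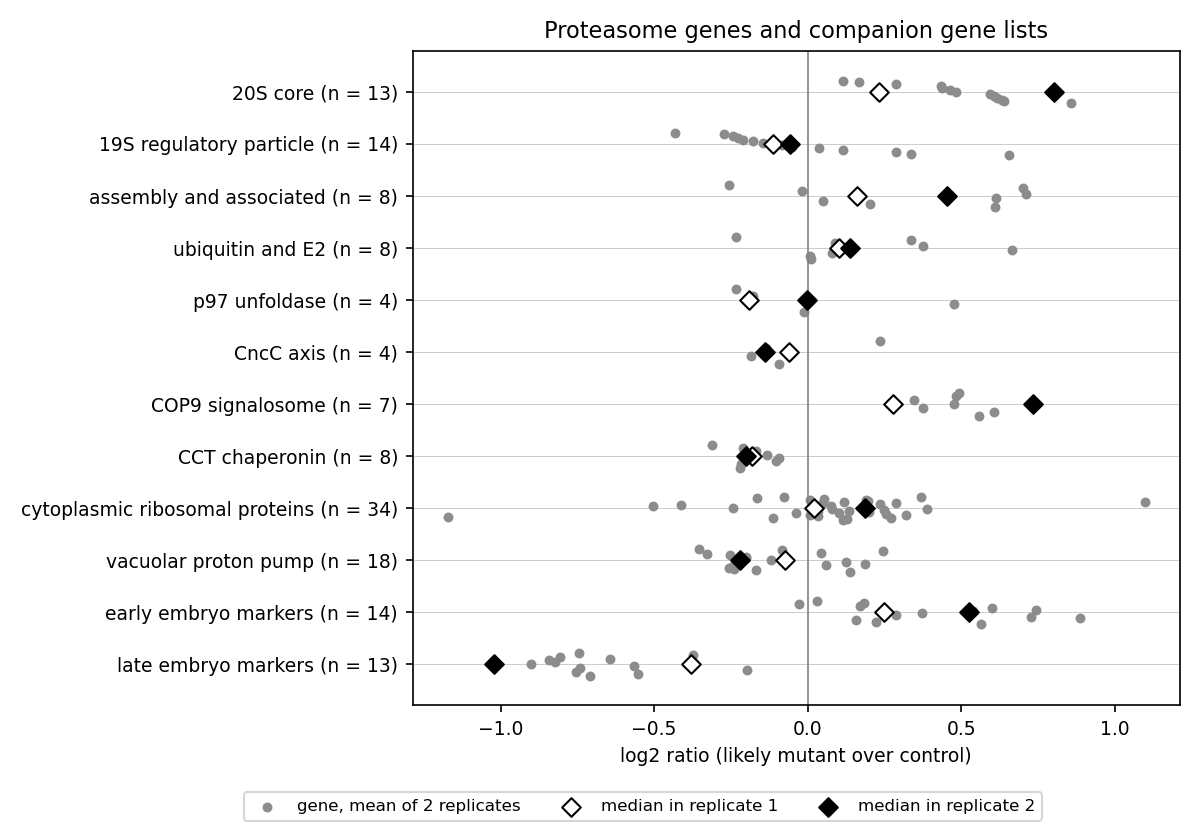
Mean log2 ratio of each gene (grey points, x axis) in the 20S core, the 19S particle and 10 further gene lists (y axis, offset for legibility), with the list median in replicate 1 (open diamond) and replicate 2 (filled diamond). The core and the COP9 signalosome have medians of 0.80 and 0.74 in replicate 2, the 19S particle lies near 0, and the late embryo markers reach -1.02.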

How the data were processed

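The deposited values are log2 ratios of the channels of 4 two-colour arrays; that they are to base 2 is inferred from limma, which the submitters' processing notes name without a version. Background correction, normalization and the rule for empty spots are not stated in the sources used here. Array medians lay between 0.0007 and 0.012. Spots with a value numbered 6537 to 7976 of 16416 per array. Intensities were not used. Precision is limited by how many arrays there are.

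Of the spots, 13164 had 1 gene symbol, 101 several and 3151 none in the platform annotation. Symbols were updated through the Release 6 plus ISO1 MT gene table, 12533 by gene ID and 120 by accession, and 511 kept theirs. Spots of a gene were averaged per array, then the dye-swapped arrays within each replicate, and the 2 replicate means were tested against 0 (two-sided, by lmFit and eBayes of limma 3.58.1 under R 4.3.3, with p-values adjusted by Benjamini-Hochberg across the 5752 genes with a value on at least 1 array of each replicate). The script was tested on simulated data. It recovered 46% of 100 genes given a log2 ratio of 0.5 in size and 100% of 100 given 1, with 7.0% false among those called. Only these genes were changed, and both replicates of a gene were drawn with the same spread. In the real data 643 genes passed as positive and 670 as negative, and ratios were wider in replicate 2. The simulated rates therefore need not apply to them. The smallest mean that passed in the real data was 0.41 in size. A gene that did not pass may still differ. Errors are the SD of 2 replicate means.

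Members past the test and the 3 highest and lowest of each particle are given with all array values; from other lists, genes past the test and the extremes are named. The members and lists were chosen with earlier results of these data known. List symbols were updated by hand in 4 cases. Alternatives concerned the arrays, replicates, dye, scale, centring, spots and variance, and that without 1 array was chosen after seeing the data. No set test was made.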

Additional observations from a re-analysis of the deposited data

Results flagged for a closer look

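Rpn5, a lid gene, had 1 array far from the other 3. Its log2 ratios were 0.12 and -0.31 in replicate 1 and 0.19 and 0.14 in replicate 2 (mutant in Cy3 first), and the gap of the lowest value to the next took 0.848 of the whole range of the 4, above Dixon's 95% critical value. For 4 independent values, chance alone exceeds this limit in about 1 of 20 cases. The 4 arrays are swapped pairs of 2 extractions and so not independent, and that rate need not apply here. Of the 29 series examined (27 genes and the medians of the particles), 1 exceeded the limit.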

How the results depend on the processing

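The difference between the core and 19S medians kept its sign in every alternative run, between 0.35 and 0.86 without 1 replicate and between 0.55 and 0.66 otherwise. The 19S median was between -0.113 and -0.0571 without 1 replicate and -0.051 from only the 2 arrays that had the mutant in Cy3, where no 19S gene passed negatively (0). Core genes past the test numbered 7 to 10 in the planned settings with moderation, and 6 without the array labelled with a chromosome 2 transgene, where 0 19S genes were negative and 401 of all genes positive. With 4 arrays taken as independent, 2 19S genes were positive and 3 negative, and 1274 of all genes were positive and 1186 negative. All genes past the test with a positive ratio numbered 975 with a dye term and 1010 with arrays scaled to the same spread, against 643. In the ordinary one-sample test all counts were 0, which has 1 degree of freedom per gene; 461 genes had an unadjusted p under 0.05. The settings without 1 replicate have no p-value, so no call could be lost or gained there. Over the 27 members and the other alternatives, 28 values lost the call, 3 gained it and none (0) reversed a call. The cause of these changes was not tested. Each ratio already pairs the genotypes on 1 array. With the replicate as a random block over the 4 arrays, 679 genes were positive and 672 negative, and 9 core genes passed.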

Other observations

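Of 2 gene copies with a value on a single array, Prosalpha4T2 had a log2 ratio of 0.17 and Rpt3R of 0.12, both in replicate 1 with the mutant in Cy5. The genes next to the members in the Release 6 annotation are given beside 11.2% positive and 11.6% negative among all genes. Of 18 measured neighbours of core genes, 0 passed with a positive ratio and 2 with a negative one (Vajk4 at -0.71 and Npc1a at -0.46). Of 19 measured neighbours of 19S genes, 5 passed with a positive ratio and 0 with a negative one. These 5 were Hat1 (0.71) and Hpf1 (0.52), on either side of Rpn5, ave (0.65) beside Rpn6, Smn (0.48) beside Rpn12 and rdog (0.48) beside Rpn2. Neighbours were named after their values were seen.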
